A study of Mus musculus with 5 samples.

Results

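Chemokine ligands were followed across 3 mouse kidneys and 2 kidney bud transplants. The set holds 36 ligand genes of 24563 genes named on the array. Of these, 35 were matched by their symbol in the authors' gene table, and Ccl21a was matched by the sequence record that its probe carries. In the authors' table that row bears the name of a near-identical copy of Ccl21a, so the signal cannot be assigned to a single copy. The ligands were grouped by the leukocyte they attract and by its receptor.

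Chemokines are small secreted proteins that bind G protein-coupled receptors on leukocytes and steer these cells along a gradient. Inflammatory ligands are made on demand, mainly after NF-kappaB or interferon signalling, and recruit neutrophils, monocytes and activated T cells. Homeostatic ligands are made constantly and place cells in bone marrow, lymphoid organs and epithelia. In the kidney, tubule cells, endothelium, fibroblasts and resident macrophages can all make chemokines.

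To set kidney bud transplants beside developing and adult kidneys, RNA from C57BL/6 mouse tissue was hybridised to 5 one-colour arrays, with 1 array in each of 5 groups. The kidneys were taken at embryonic day E13.5, on the day of birth (P0) and at 8 weeks of age, and the grafts were tissue recovered 2 weeks or 4 weeks after a kidney bud was transplanted. The labels give no genotype beyond the strain, no drug treatment and no number of animals per array, and they do not say what the buds were made of, what host received them or where they were placed. With no replicate, no difference carries a p-value, and each value describes single arrays.

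Between 60.9% (8-week kidney) and 69.1% (2-week transplant) of gene spots were well above background. Slide 1 held the arrays of the E13.5 kidney and the 2-week graft, and slide 2 held the rest, so slide and group cannot be told apart in any comparison across slides. Among all arrays, Ddx3y of the Y chromosome lacked a signal well above background only at P0 and Xist only at 8 weeks, so sex cannot be told apart from group in comparisons with these kidneys. All 8 kidney marker genes were well above background on both transplants and on the P0 and 8-week arrays, and 6 of 8 were at E13.5. Their summed signal was 1.33 times the array's 75th percentile at E13.5, 45 at P0 and 368 at 8 weeks, against 7.02 in the 2-week and 5.69 in the 4-week transplant. Signals of other tissues lay beside these. The summed signal of 5 adipocyte markers was 183 and 441 in the 2-week and 4-week transplants against 1.62 to 32.7 in the kidneys, and that of 4 fibroblast markers was 331 and 240 against 6.4 to 36.2. In these bulk samples, fewer cells of a type and less RNA per cell cannot be told apart.

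Levels are given as log2 of a probe's signal relative to the array's 75th percentile, so that 0 is the 75th percentile. They can be compared between arrays for a gene but not between genes, whose probes differ. Most chemokine ligands were higher in the transplants than in every kidney. In 19 of the 36 genes the lower of both transplants lay at least 2-fold above the highest kidney, against 5.42% of the 19366 genes measured above background on any array. No ligand lay at least 2-fold below all kidneys, against 0.609% of genes. By any margin, 24 ligands were above all kidneys in both transplants and 1, Ccl25, was below them by 0.01, where 15.0% of all genes lay on each side. Of the 36, 34 had a signal well above background on 1 array or more, and 17 had one on all 5. Ccl20, which attracts Ccr6-bearing lymphocytes, and Ccl22, a Ccr4 ligand, were not well above background on any array.

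**Figure D1:**
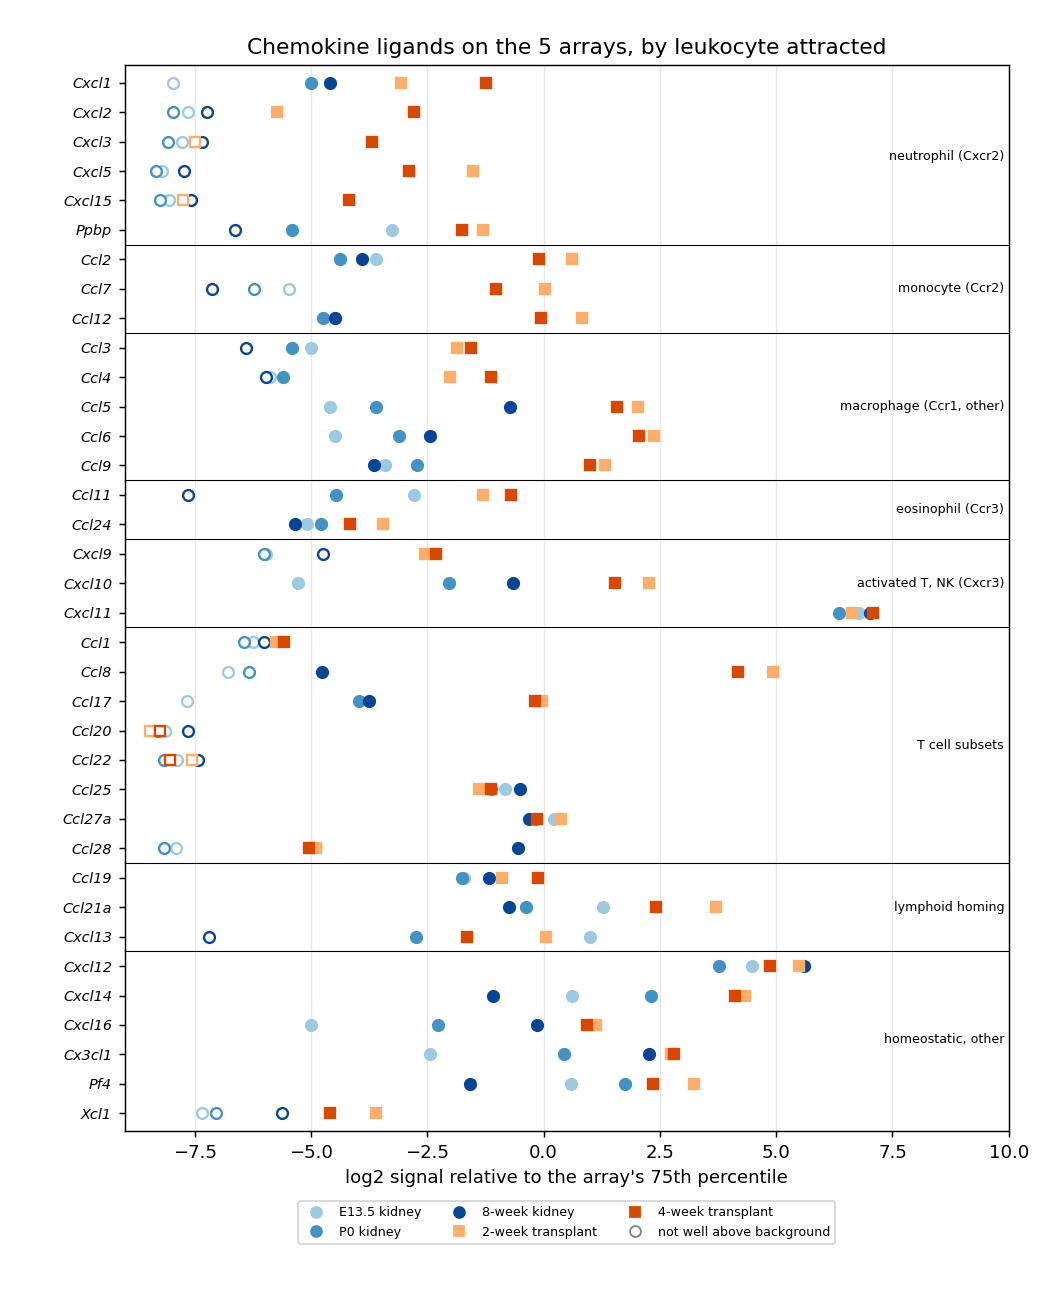
Log2 signal of each of the 36 ligands on the 5 arrays, relative to the array's 75th percentile (horizontal axis), grouped by the leukocyte attracted; circles are kidneys, squares are transplants, and open symbols were not well above background. Ccl8 stands at 4.94 and 4.18 in the transplants and at -4.77 in the 8-week kidney, while the 5 symbols of Cxcl11 lie between 6.36 and 7.08.

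Within slides the same order was seen. A gene was called where 2 arrays were at least 4-fold apart, which is 2 on the log2 scale. In the 2-week transplant 20 of the 36 ligands were higher and 0 lower than in the E13.5 kidney of the same slide, against 11.3% and 5.42% of all genes compared. In the 4-week transplant 21 were higher and 0 lower than in the P0 kidney, against 8.66% and 4.36% of genes. Against the 8-week kidney 21 were higher and 1, Ccl28, was lower, against 11.7% and 7.80% of genes. The median differences were 2.98, 3.15 and 2.54 where all genes had -0.11, -0.02 and 0.00.

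These counts include genes that were dim in the kidney and enter as bounds. Among ligands well above background on both arrays, 12 of 21, 15 of 24 and 12 of 21 were called higher, against 8.73%, 6.84% and 8.89% of genes measured in that way. With a normexp background correction the count of 20 against E13.5 fell to 10 and the number above all kidneys by 2-fold to 9. All genes shifted too in the comparison with E13.5, to 606 higher and 3305 lower from 2070 and 989. For the E13.5 array that correction estimated the mean background at -992. With negative control spots as background, these counts were 17 and 17.

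**Figure D2:**
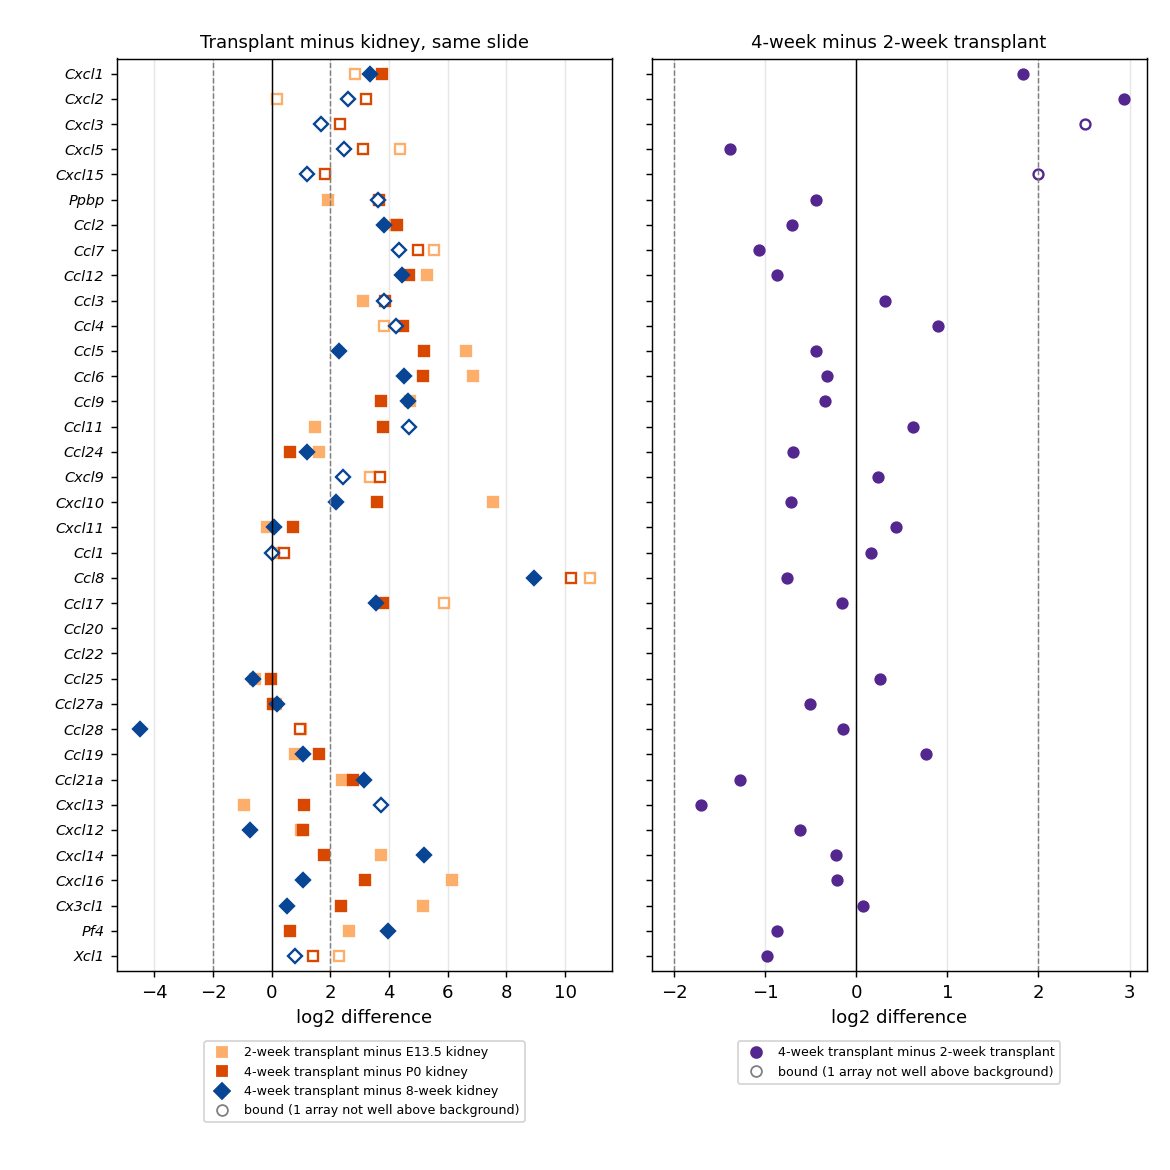
Log2 difference of each ligand (horizontal axis) between a transplant and a kidney of the same slide (left) and between the 4-week and 2-week transplant (right); open symbols are bounds where 1 array was not well above background, and dashed lines mark a 4-fold difference. Ccl8 lies farthest right in all 3 transplant comparisons, Ccl28 farthest left against the 8-week kidney, and Cxcl2 farthest right between the transplants at 2.94.

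The monocyte attractants showed no overlap between kidneys and transplants. Ccl2, Ccl7 and Ccl12 bind Ccr2, the receptor that brings blood monocytes into tissue. Ccl2 stood at -3.60 at E13.5, -4.37 at P0 and -3.91 at 8 weeks, and at 0.62 and -0.09 in the 2-week and 4-week transplants. Ccl12 stood at -4.49, -4.74 and -4.48 in the kidneys in the same order, and at 0.82 and -0.05 in the transplants. Both genes were nearly level across the kidney ages and at least 11.4-fold higher in each transplant. Ccl7 was not well above background in any kidney and reached 0.04 and -1.03 in the transplants, at least 45.9-fold above E13.5 in the 2-week and at least 31.7-fold above P0 in the 4-week transplant. All 3 were somewhat lower in the 4-week than in the 2-week transplant, by 0.71 (Ccl2), 0.87 (Ccl12) and 1.07 (Ccl7) on the log2 scale, which is under the 4-fold call. With a normexp correction the 2-week differences from E13.5 fell below the call, to 1.67 (Ccl2), 1.99 (Ccl12) and 0.84 (Ccl7).

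Ccl3, Ccl4, Ccl5, Ccl6 and Ccl9, which act on monocytes, macrophages and T cells, in part through Ccr1, were likewise all higher in both transplants. Ccl6 and Ccl9 are rodent chemokines made largely by myeloid cells. Ccl6 stood at -4.49, -3.10 and -2.45 in the E13.5, P0 and 8-week kidneys, and at 2.37 and 2.05 in the 2-week and 4-week transplants. The 2-week value was 116-fold above E13.5. Ccl9 stood at -3.40, -2.73 and -3.65 in the kidneys and at 1.33 and 0.99 in the transplants, which was 26.6-fold above E13.5 and 13.1-fold above P0.

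Ccl3 and Ccl4, made by activated macrophages and lymphocytes, were near or below the detection limit in the kidneys. Ccl3 was at -5.00 at E13.5, -5.40 at P0 and not well above background at 8 weeks, against -1.87 and -1.55 in the transplants. Ccl4 was well above background only at P0 among the kidneys, at -5.60, and reached -2.02 and -1.13. With the normexp correction Ccl3 turned to -0.58 and Ccl4 came to 0.00 for the 2-week transplant against E13.5. Ccl5 (RANTES), a product of T cells, NK cells and stressed epithelium, stood at -4.59 at E13.5, -3.61 at P0 and -0.73 at 8 weeks, and was called higher at 8 weeks than at P0. It stood at 2.02 and 1.58 in the transplants. The 8-week kidney was thus the nearest to the transplants, 6.72-fold below the 2-week value, across slides, and 4.94-fold below the 4-week value.

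Macrophage markers moved with these ligands. All 8 macrophage markers were well above background on every array. In the 2-week transplant 7 were called higher than at E13.5, and in the 4-week transplant 7 were called higher than at P0, with Fcgr1 the exception in both, against 11.3% and 8.66% of all genes. Their summed signal was 3.87 to 15.4 in the kidneys and 64.5 and 43.8 in the 2-week and 4-week transplants. The part of these cells in the ligand signals was not tested.

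**Figure D3:**
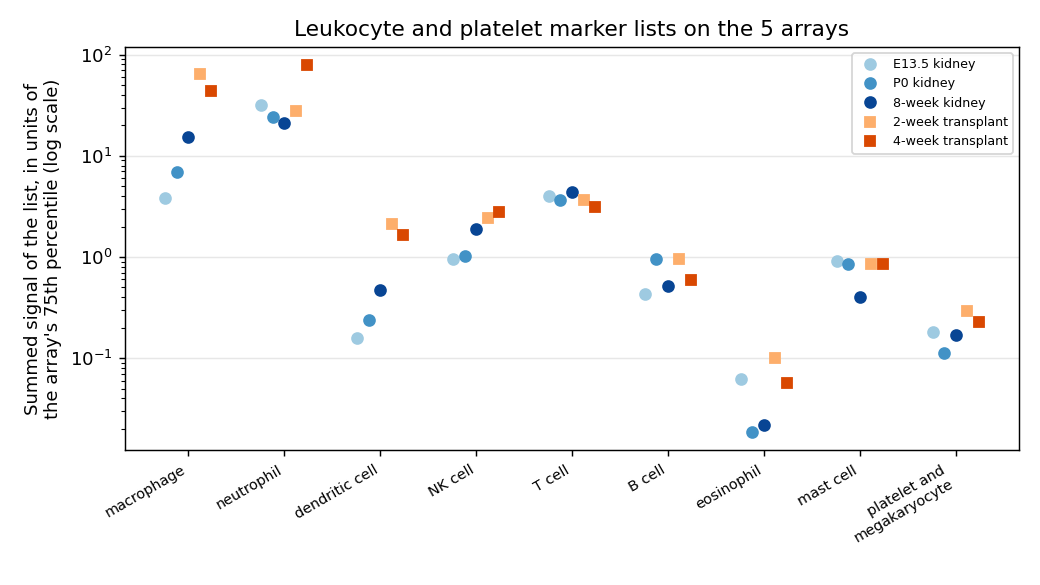
Summed signal of each marker list on the 5 arrays, in units of the array's 75th percentile on a log axis; circles are kidneys and squares are transplants. The sums of the macrophage, dendritic cell, NK cell and platelet lists stand above all kidneys in both transplants, and that of the neutrophil list only in the 4-week transplant (78.7). The T cell list, summed mostly from Cd4, Cd3e and Lck, does so in neither. Of the platelet markers, only Gp9 by itself lay above all kidneys in both transplants.

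The ligands of Cxcr2, the neutrophil receptor, were the group in which the transplants differed most from each other. Cxcl1, Cxcl2 and Cxcl3 are close relatives made by epithelium, stroma and macrophages under NF-kappaB signalling. The upstream sequences of these genes are shown because they carry the same motif. Whether the motif has a part in their levels was not tested. Each stretch covers 110 to 41 bases before the gene's start, from RefSeq on GRCm38.p6, 5′ to 3′, with matches to the NF-kappaB consensus in capitals. The Cxcl1 stretch is chr5:90891135-90891204, that of Cxcl2 is chr5:90903789-90903858 and that of Cxcl3 is chr5:90785991-90786060, all on the plus strand.
Cxcl1: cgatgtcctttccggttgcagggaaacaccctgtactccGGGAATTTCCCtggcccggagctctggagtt
Cxcl2: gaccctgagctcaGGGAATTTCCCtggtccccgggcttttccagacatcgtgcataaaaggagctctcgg
Cxcl3: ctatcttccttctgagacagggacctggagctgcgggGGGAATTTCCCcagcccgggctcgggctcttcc

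The NF-kappaB consensus was searched on both strands in the 250 bases before the start of each gene. It was found in 7.25% of 32851 promoters in the RefSeq table and in 7 of the 27 ligands with an entry there, namely Cxcl1, Cxcl2, Cxcl3, Cxcl10, Ccl1, Ccl9 and Ccl20. In Cxcl1, Cxcl2 and Cxcl3 the forward and reverse matches overlap in the 11 bases shown in capitals. A match describes these letters and does not show that a factor binds. The ligands without an entry were Ccl2, Ccl4, Ccl5, Ccl7, Ccl11, Ccl24, Cxcl5, Cxcl11 and Cxcl16.

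Cxcl2 was not well above background in any kidney, stood at -5.73 in the 2-week transplant and at -2.79 in the 4-week transplant. The grafts were 7.68-fold apart, and the 4-week transplant lay at least 9.37-fold above P0 and at least 6.04-fold above the 8-week kidney. On the log2 scale these differences from the kidneys were 3.23 and 2.59, and they fell below the call with a normexp correction (1.66 and 1.19) and with negative control spots (1.84 and 1.24). The 2-week signal was too near the detection limit of the kidney arrays for a useful fold against them. Cxcl3 was well above background in the 4-week transplant alone, at -3.68, which is at least 5.69-fold above the 2-week transplant and 5.05-fold, as a lower bound, above P0. The latter was under the call at 1.11, 1.25 and 1.91 with a normexp correction, negative control spots and quantile normalization. Cxcl15 (lungkine), best known from lung epithelium, had the same pattern at -4.18, at least 4.01-fold above the 2-week transplant. Cxcl1 was not well above background at E13.5, stood at -4.99 at P0 and -4.58 at 8 weeks, and at -3.06 and -1.23 in the 2-week and 4-week transplants, a gap of 3.56-fold between the grafts that missed the 4-fold call. The 4-week transplant was 3.76 above P0 on the log2 scale, and the 2-week transplant at least 7.12-fold above E13.5, which became 0.00 with a normexp correction and 1.91 on the log2 scale with negative control spots.

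The other Cxcr2 ligands did not share this order of the grafts. Cxcl5, a product of epithelium and of fat tissue macrophages, was not well above background in any kidney and stood at -1.51 in the 2-week and -2.90 in the 4-week transplant. The 2-week transplant was at least 20.9-fold above E13.5, and the 4-week transplant was 2.62-fold below the 2-week one. With a normexp correction the difference from E13.5 was 0.00, and the 4-week differences of 3.11 from P0 and 2.48 from 8 weeks were 1.83 and 1.36. The last was 1.43 with negative control spots. Ppbp, the platelet chemokine whose product is cut to Cxcl7, stood at -3.25 at E13.5 and -5.41 at P0, was not well above background at 8 weeks, and reached -1.31 and -1.75 in the transplants. Its grafts differed by 0.44.

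Across all 36 ligands, the 4-week transplant was at least 4-fold above the 2-week transplant in 3, namely Cxcl2, Cxcl3 and Cxcl15, and below it in 0, against 2.44% and 1.02% of all genes. The median ligand difference was -0.27, where all genes had 0.00. By the authors' deposited table, which is not scaled to the percentile, 543 genes were higher and 368 lower, against 451 and 189 here, and the 3 ligands were 2.75, 3.63 and 3.37 higher in the order Cxcl2, Cxcl3 and Cxcl15. With a normexp correction the ligands were 1.53, 1.09 and 0.97 higher, and with negative control spots 1.75, 1.29 and 1.14, so that 0 were called under either. Quantile normalization put Cxcl15 at 1.82. The grafts' arrays lay on different slides.

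Some neutrophil markers and markers of other tissues also differed between the grafts. Of 9 neutrophil markers, 4 (S100a8, S100a9, Retnlg and Ngp) were called higher in the 4-week than in the 2-week transplant and 0 lower. Over all genes the shares were 2.44% and 1.02%, and the median of the 9 markers was 0.92. The other 5 were within 4-fold. Among these, Ly6g was nearly level (-0.73 and -0.68), Mpo and Elane were slightly lower, and Csf3r and Ltf were higher. The summed signal of the 9 markers was 78.7 in the 4-week transplant, 27.6 in the 2-week transplant and 21.2 to 32.1 in the kidneys. At E13.5 most of the sum came from Csf3r, the G-CSF receptor, and Ly6g, Ngp, Ltf and Retnlg were not well above background there. The 3 adrenal cortex markers summed to 45.2 in the 4-week transplant and to between 0.101 and 0.194 elsewhere, and the adipocyte sum also differed between the grafts. Their part in the Cxcr2 ligand signals was not tested.

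Ligands of Cxcr3, which attract activated T and NK cells and are induced by interferon, were higher in both transplants for 2 of 3 genes. The Cxcl10 upstream stretch is shown because it holds both an interferon-type and NF-kappaB motifs. It runs from 220 to 85 bases before the start, chr5:92348974-92349109 on the minus strand of GRCm38.p6 (RefSeq), and is written 5′ to 3′ along the gene. The first run in capitals matches the core of the interferon-stimulated response element (ISRE), which is GAAA, any pair of bases and GAAA again, and the later ones match the NF-kappaB consensus.
Cxcl10: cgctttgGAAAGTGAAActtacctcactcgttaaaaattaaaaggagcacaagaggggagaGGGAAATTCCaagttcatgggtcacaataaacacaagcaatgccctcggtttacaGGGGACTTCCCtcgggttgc

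Searched on both strands, the ISRE core was found in 2.98% of all 32851 promoters and in 3 of 27 ligands, Cxcl10, Ccl19 and Cxcl14. Cxcl10 was highest in the grafts. It stood at -5.27 at E13.5, -2.04 at P0 and -0.65 at 8 weeks, and at 2.26 and 1.54 in the 2-week and 4-week transplants. The 2-week transplant was 185-fold above E13.5, and the 4-week transplant was 11.9-fold above P0 and 4.57-fold above the 8-week kidney. A second Cxcl10 probe was not well above background on any array, and the mean of both probes put these differences at 3.58, 2.41 and 1.39, the last under the 4-fold call. Cxcl9 was not well above background in any kidney by the probe used and stood at -2.55 and -2.31 in the transplants, at least 10.2-fold above E13.5 and at least 12.9-fold above P0. Its second probe did measure the 8-week kidney, at -3.56, and the transplants at -1.57 and -1.20. By the probe used, the calls against E13.5, P0 and 8 weeks were lost with a normexp correction (0.00, 1.84 and 1.09), and those against E13.5 and 8 weeks with negative control spots (1.89 and 1.35).

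Cxcl11 did not follow these relatives. Its probe stood at 6.78, 6.36 and 7.01 in the kidneys and at 6.64 and 7.08 in the transplants, and all 6 comparisons were within 4-fold by both of its probes. RefSeq lists Cxcl11 of the C57BL/6J genome as a transcribed pseudogene, so the signal of this strain does not stand for a functional ligand. Beside Cxcl9 and Cxcl10, the T cell markers summed to 3.65 to 4.35 in the kidneys and to 3.7 and 3.09 in the transplants. Of these 7 markers 3 to 5 were well above background in the kidneys and 6 in each transplant, Cd8a on no array, and 1 (Cd2) was called higher within each slide than at E13.5 or P0. On every array most of the T cell sum came from Cd4, Cd3e and Lck, so the sum says little about the other markers. Of the 5 NK cell markers, Ncr1 and Klrb1c were well above background only in the transplants, and the list summed to 2.42 and 2.79 there and 0.957 to 1.88 in the kidneys. Gzma stood at 0.13 and 0.50 in the transplants and reached -1.77 in the kidneys. The other NK markers were highest in a kidney, Nkg7 at 8 weeks (0.48, against 0.03 and 0.12) and Prf1 at E13.5 (-2.01, against -2.43 and -2.20). Their part in the Cxcr3 ligand signals was not tested.

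The ligands for T cell subsets included the largest difference of the family. Mouse Ccl8 acts mainly through Ccr8 and is made by macrophages and skin cells. It was not well above background at E13.5 or P0, stood at -4.77 at 8 weeks, and at 4.94 and 4.18 in the 2-week and 4-week transplants. The grafts were at least 1826-fold above E13.5 (2-week) and at least 1169.8-fold above P0 (4-week), and 839.5-fold (across slides) and 495-fold above the 8-week kidney. The lowest log2 difference in the comparisons within slides, over the alternatives run, was 6.07, for the 2-week transplant against E13.5 with a normexp correction. Ccr8 itself was within 4-fold in every comparison and lay between -5.28 and -4.34 on all arrays.

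Ccl17, a dendritic cell product that binds Ccr4, was not well above background at E13.5, stood at -3.97 at P0 and -3.75 at 8 weeks, and at -0.03 and -0.19 in the transplants. It was 13.7-fold above P0 and 11.8-fold above the 8-week kidney in the 4-week transplant, while its receptor Ccr4 was not well above background on any array. The 2-week transplant was at least 58.1-fold above E13.5, a log2 difference of 5.86 that fell to 1.34 with a normexp correction. Most dendritic cell markers were higher in the grafts. Against E13.5 (2-week) and P0 (4-week) 4 of 5 were called higher, where 11.3% and 8.66% of all genes were. The exception was Zbtb46, at -3.08 and -3.83 in the grafts and -4.21 to -2.29 in the kidneys. Against 8 weeks 1 was called higher in the 4-week transplant (11.7% of genes). From P0 to 8 weeks 3 were called higher (8.93% of genes), and Ccl17 was not. All 5 markers were well above background at 8 weeks and in both grafts, and 2 of 5 at E13.5 and P0. Their sums were 0.158 to 0.47 in the kidneys and 2.13 and 1.66 in the grafts, and their part in the Ccl17 level was not tested.

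Ccl28, made by mucosal and glandular epithelium to attract Ccr10-bearing plasma cells, ran the other way. It was not well above background at E13.5 and P0, stood at -0.54 at 8 weeks, and at -4.89 and -5.04 in the grafts. The adult kidney was at least 44.4-fold above the newborn and 20.3-fold (across slides) and 22.6-fold above the 2-week and 4-week transplants. It was the only ligand in which a transplant lay at least 4-fold below the 8-week kidney. Most kidney markers also stood lower in the grafts than at 8 weeks (6 of 8 called lower in the 4-week transplant, against 7.80% of all genes). Their part in the Ccl28 level was not tested.

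The remaining T cell ligands that could be compared had no call by the probes used. Ccl1, a Ccr8 ligand, was well above background only in the grafts, at -5.74 and -5.58. Its folds against the kidneys are lower bounds, all below 2. A second Ccl1 probe stood at -4.88 in the 2-week transplant and was dim elsewhere. Ccl25, which guides T cells to thymus and gut, was within 2-fold in every comparison, from -1.39 to -0.50, although another probe for it stood 2.72 higher at 8 weeks than at P0. Ccl27a, the skin-homing chemokine, was also within 2-fold, from -0.32 to 0.38, and its probes may share signal with the near-identical copy Ccl27b.

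Of the eosinophil attractants through Ccr3, Ccl11 (eotaxin) was called between grafts and kidneys but not from E13.5 to P0 or from P0 to 8 weeks. The latter difference is a bound, at least 1.89-fold lower at 8 weeks, and E13.5 was not compared with 8 weeks. It stood at -2.79 at E13.5 and -4.46 at P0, was not well above background at 8 weeks, and reached -1.31 and -0.69 in the grafts. The 4-week transplant was 13.7-fold above P0, but the 2-week transplant only 2.80-fold above E13.5. Ccl24 was between -5.35 and -4.79 in the kidneys and at -3.46 and -4.16 in the grafts, without a call in any comparison. The 3 eosinophil markers summed to 0.0186 to 0.0626 in the kidneys and to 0.101 and 0.0566 in the grafts. Siglecf was well above background at E13.5 and in both grafts, Prg2 at E13.5 and in the 2-week transplant, and Epx (eosinophil peroxidase) on no array. Their part in the Ccl11 and Ccl24 levels was not tested.

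The ligands that home cells to lymphoid tissue did not share one pattern. Ccl21a, made by lymphatic endothelium and lymph node stroma for Ccr7, stood at 1.28 at E13.5, -0.37 at P0 and -0.75 at 8 weeks, and at 3.70 and 2.42 in the grafts. It was 5.33-fold above E13.5 in the 2-week and 6.90-fold above P0 in the 4-week transplant, and 2.43-fold apart between the grafts. Ccl19, the other Ccr7 ligand, stood at -1.70, -1.75 and -1.18 in the kidneys and at -0.89 and -0.12 in the grafts, with no call and with the 4-week transplant highest by all 3 of its probes. Ccr7 itself, carried by naive T cells and mature dendritic cells, was called higher in the 3 comparisons within slides, at 11.3-fold (2-week against E13.5), 32.0-fold (4-week against P0) and 7.61-fold (4-week against 8 weeks). Of 4 lymphatic endothelium markers, Prox1 was well above background only in the 4-week transplant. The list summed to 0.524 to 3.02 in the kidneys and to 6.49 and 4.21 in the grafts, with most from Pdpn on every array. Flt4 lay between -5.24 and -4.60 throughout. Within slides, 0 of these markers were called higher than at E13.5 or P0 and 2 than at 8 weeks, against 11.3%, 8.66% and 11.7% of genes. Their part in the Ccl21a level was not tested.

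Cxcl13, which draws B cells to follicles through Cxcr5, was highest in the embryo. It stood at 1.00 at E13.5 and -2.74 at P0, was not well above background at 8 weeks, and stood at 0.05 and -1.65 in the 2-week and 4-week transplants. The grafts therefore overlapped the kidneys. The 4-week transplant was 6.28-fold below E13.5, across slides, and at least 13.2-fold above the 8-week kidney. Of the B cell markers, Cd79a and Cd79b were well above background on all 5 arrays, and Ms4a1 and Pax5 in neither graft. The list summed to 0.431 to 0.948 in the kidneys and to 0.961 and 0.595 in the grafts, and its part in the Cxcl13 level was not tested.

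The homeostatic and remaining ligands were present on most arrays. Cxcl12, which holds haematopoietic cells in the marrow and guides progenitors through Cxcr4, stood at 4.49, 3.78 and 5.60 in the kidneys and at 5.48 and 4.86 in the grafts, with no call by the probe used. Its second probe disagreed, with log2 differences of 3.34 for the 2-week transplant against E13.5 and 2.64 for the 4-week transplant against P0. Cxcl14, an epithelial and stromal chemokine, stood at 0.61, 2.32 and -1.08 in the kidneys and at 4.34 and 4.12 in the grafts. That is 13.3-fold above E13.5 in the 2-week transplant and 36.8-fold above the 8-week kidney in the 4-week transplant, but 3.48-fold above P0.

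Cxcl16 and Cx3cl1 are the membrane-bound ligands, which also tether Cxcr6-bearing and Cx3cr1-bearing cells, and both were lowest at E13.5 and highest among the kidneys at 8 weeks. Cxcl16 stood at -5.00, -2.26 and -0.13 in the kidneys and at 1.13 and 0.93 in the grafts. Cx3cl1 (fractalkine) stood at -2.43, 0.44 and 2.26 and at 2.73 and 2.80. The adult kidney was within 4-fold of both grafts for each gene. In the 2-week transplant Cxcl16 was 70.2-fold and Cx3cl1 35.8-fold above E13.5, and in the 4-week transplant they were 9.12-fold and 5.12-fold above P0.

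Pf4 (platelet factor 4), stored in platelets and also made by macrophages, stood at 0.59 at E13.5, 1.75 at P0 and -1.59 at 8 weeks, and at 3.23 and 2.36 in the grafts. It was 6.24-fold above E13.5 in the 2-week transplant and 15.5-fold above the 8-week kidney in the 4-week transplant, but 1.53-fold above P0. Of 5 platelet markers, Itga2b and Gp1bb were well above background on all 5 arrays, Gp9 on all but the 8-week array. Gp1ba and Gp5 were not well above background on any array. Only Gp9 lay above all kidneys in both grafts, and Itga2b was highest at 8 weeks (-3.26, against -4.12 and -4.36 in the grafts). The list summed to 0.112 to 0.183 in the kidneys and to 0.294 and 0.23 in the grafts, and its part in the Pf4 level was not tested. Xcl1, made by activated CD8 T and NK cells for Xcr1-bearing dendritic cells, was well above background only in the grafts, at -3.61 and -4.59, at least 4.86-fold above E13.5 in the 2-week transplant. This call was lost at 0.00 with a normexp correction, 1.15 with negative control spots and 1.85 with quantile normalization. Its receptor Xcr1 was not well above background on any array.

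Over kidney development, ligands were called in both directions between neighbouring ages, and E13.5 was not compared with 8 weeks. From E13.5 to P0, across slides, 3 of the 24 ligands compared were higher and 2 lower, against 6.24% and 1.83% of all genes. The higher ones were Cxcl10 (9.40-fold), Cx3cl1 (7.34-fold) and Cxcl16 (6.68-fold), and the lower ones Cxcl13 (13.4-fold) and Ppbp (4.48-fold). With a normexp correction Cxcl10 and Cxcl16 turned to -0.65 and -1.01 and Cx3cl1 fell to 1.13. With negative control spots Cxcl16 was at 1.90 and Ppbp at -1.34, under the call, and the mean of both Cxcl10 probes was 1.51. From P0 to 8 weeks, within slide 2, 26 ligands were compared, and Ccl28, Ccl5 (7.36-fold) and Cxcl16 (4.37-fold) were higher. Cxcl14 (10.6-fold), Pf4 (10.2-fold) and Cxcl13 (at least 6.22-fold) were lower, and 8.93% of all genes were higher and 9.35% lower. The calls of Cxcl13 and Cxcl16 were lost with a normexp correction (-1.19 and 1.83) and with negative control spots (-1.25 and 1.89), and that of Cxcl16 by the authors' deposited table (1.57). By the authors' deposited table, 1149 genes were higher and 2969 lower, against 1577 and 1651 here, and 2 ligands were higher and 4 lower, so the balance of directions depends on the scaling.

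Several receptors for these ligands were higher in the grafts too. Of 17 chemokine receptors, 5 were called higher in the 2-week transplant than at E13.5, 7 in the 4-week transplant than at P0 and 5 than at 8 weeks, with 0 lower in each, where 11.3%, 8.66% and 11.7% of all genes compared were higher. The median log2 differences were 1.61, 2.77 and 1.06 over the 13, 12 and 12 receptors compared, and -0.11, -0.02 and 0.00 over all genes. Ccr1, Ccr4, Cxcr1 and Xcr1 were not well above background on any array.

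**Figure D4:**
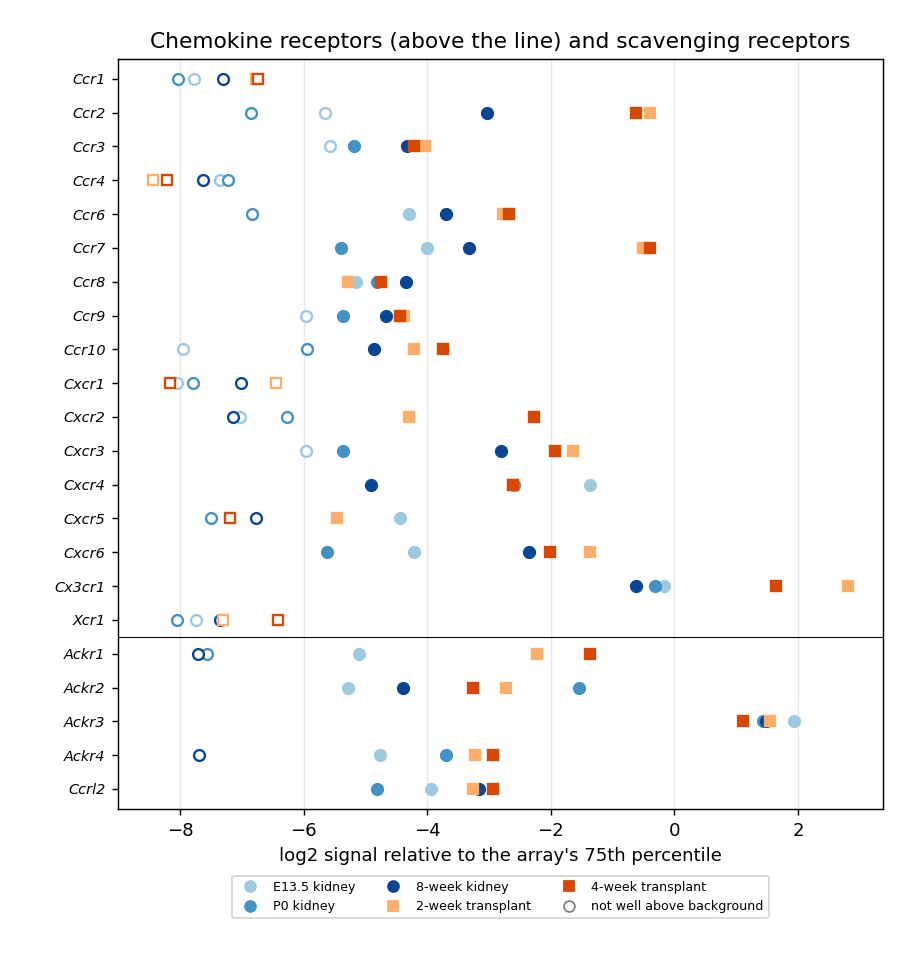
Log2 signal of 17 chemokine receptors and, under the line, 5 scavenging receptors on the 5 arrays, relative to the array's 75th percentile; circles are kidneys, squares are transplants, and open symbols were not well above background. Ccr2 and Ccr7 stand apart in both transplants, Cxcr2 is at -4.29 and -2.27 in the 2-week and 4-week transplants, and Ccr8 is between -5.28 and -4.34 throughout.

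Ccr2, the monocyte receptor, was well above background at 8 weeks (-3.03) and in the grafts (-0.40 and -0.62), and not at E13.5 or P0. It was 5.32-fold above the 8-week kidney in the 4-week transplant. Ccr2 thus lay higher in both grafts than in all kidneys, as its ligands did. Cxcr2 was well above background only in the grafts and was 4.05-fold higher in the 4-week transplant, just over the call. It was the only one of 13 receptors compared that was called between the grafts, against 2.44% of all genes higher. Cx3cr1, the fractalkine receptor of resident macrophages, was at -0.17, -0.31 and -0.62 in the kidneys and at 2.81 and 1.65 in the grafts. Cxcr4 was highest at E13.5, at -1.37, and the same in both grafts, at -2.61.

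Of the 5 scavenging receptors, which bind chemokines without classical signalling, Ackr1 was at least 25.2-fold above P0 in the 4-week transplant and 7.30-fold above E13.5 in the 2-week transplant. Ackr1 is carried by venule endothelium and red cells. Ackr3, which removes Cxcl12, was within 2-fold throughout. The blood endothelium markers summed to 6.7 to 8.38 in the kidneys and to 8.77 and 8.38 in the grafts, with the largest part from Kdr on every array. Within slides 1 of these 4 markers was called higher in a graft. This was Cdh5, at 1.31 in the 4-week transplant and -0.80 at 8 weeks, where 11.7% of all genes were called. The part of the endothelium in the Ackr1 level was not tested.

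Cytokines that induce chemokines and their early targets were higher in the grafts as well. Of 15 such genes, 7 were called higher in the 2-week transplant than at E13.5, 8 in the 4-week transplant than at P0 and 4 than at 8 weeks, with 0 lower, against 11.3%, 8.66% and 11.7% of all genes. Il1b was well above background at 8 weeks (-4.75) and in the grafts, at -1.73 in the 2-week and 0.81 in the 4-week transplant, a gap of 5.83-fold. Il1a was well above background only in the 4-week transplant, at least 5.39-fold above the 2-week one. Il6 and Tnf were well above background only in the grafts, and there the 2 arrays differed by 0.42 and -0.08. Ifng was at -5.05 in both grafts and not well above background in the kidneys. Its folds against the kidneys are lower bounds, all below 2, and do not show how large the differences were. Il4, Il13 and Il17a were not well above background on any array.

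Of 5 proteases that trim or shed chemokines, 3 were called higher in the 2-week transplant than at E13.5 and 0 in the 4-week transplant than at P0 or 8 weeks, against 11.3%, 8.66% and 11.7% of all genes. Mmp12, the macrophage elastase, was at -1.66 in the 2-week and -3.70 in the 4-week transplant and not well above background in the kidneys. It was 4.11-fold lower in the 4-week than in the 2-week transplant. Adam10, which sheds Cxcl16 and Cx3cl1, was within 2-fold in the 4 comparisons with a graft.

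Many ligand genes are neighbours on the chromosome. By RefSeq order (GRCm38), 21 of the 35 protein-coding ligands lie in 4 clusters of at least 3 ligands with no other protein-coding gene between them. The counts that follow stand beside 19 of 36 over all ligands and 5.42% over all genes. On chromosome 11, 5 of the 6 genes from Ccl2 to Ccl1 were at least 2-fold above all kidneys in both grafts, the exception being Ccl1. The other cluster on that chromosome, Ccl5, Ccl9, Ccl6, Ccl3 and Ccl4, had 5 of 5. In the cluster on chromosome 5 that runs from Cxcl5 to Cxcl2 it was 3 of 7 (Cxcl5, Ppbp and Cxcl1), and Cxcl3, Cxcl15 and Cxcl2 in the same cluster were those called higher in the 4-week transplant. On chromosome 8, Ccl17 was above all kidneys and its neighbours Cx3cl1 and Ccl22 were not by that margin.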

How the data were processed

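RNA was labelled with Cy3 and hybridised to Agilent one-colour mouse arrays. The authors deposited scanner files with spot intensity after background subtraction and detrending (Agilent Feature Extraction 10.7.3.1, per the submitters' processing notes), and a gene table in log2 units centred on each gene's median. Rebuilt from the scanner files, 99.71% of that table's values came within 0.01 with no percentile shift and 18.2% with one.

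Levels were log2 intensity on a scale where the 75th percentile of each array's 43020 gene spots is 0. Outlier spots on any array were dropped, a probe took the mean of its spots, and each gene took its probe of highest mean. A probe passed as well above background unless most of its spots were not. Where only 1 of 2 arrays passed, the other was set to its own value or, if higher, to that array's lowest passing value, which gives an "at least" fold, and a bound against the direction was set to 0. Genes that passed on neither array were not compared. With all 3 kidneys, dim values were treated alike and the higher side had to pass.

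All 36 ligands are described, with levels where a comparison was called. Other genes come from lists of receptors, cytokines, proteases and markers, and 1 receptor and 1 marker are not reported here. The ligands, lists and motifs were chosen with earlier results of these data known. With 1 array per group no test was run, and the number of arrays limits the precision. Replicate spots of a probe varied by a median SD of 0.0486 to 0.0570 (log2), and no spot was saturated. The steps were tested on simulated data. Python 3.11.15, R 4.3.3 and limma 3.58.1 were used. Alternatives were normexp (offset 50) on the median signal, normexp with 153 negative control spots, quantile normalization, averaging the probes of a gene, the deposited gene table, stricter and no filtering of dim probes and another fold threshold.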

Additional observations from a re-analysis of the deposited data

How the results depend on the processing

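No paired analysis was possible because each group holds 1 array and no test was made. Each of the 14 counts (ligands higher or lower in 6 comparisons, and above or below all kidneys) was recomputed under 8 alternatives. Quantile normalization and the mean over probes kept all 14 within 1.5 times of the reported value, while negative control spots kept 12, and the authors' deposited table and no filter on dim probes kept 13 each. With a normexp correction, ligands higher in the 2-week transplant than at E13.5 numbered 10 (20 as reported), higher at 4 than at 2 weeks 0 (3), higher at P0 than at E13.5 0 (3), lower there 7 (2) and above all kidneys 9 (19). It estimated the mean background at -992 for E13.5 and at 20.7 to 27.5 for the other arrays. Over all genes it gave 606 higher and 3305 lower in the 2-week transplant than at E13.5 (2070 and 989 as reported). At P0 against E13.5 it gave 304 higher and 3207 lower (1096 and 322), so these shifts were not particular to the ligands. With negative controls, 0 were higher at 4 than at 2 weeks and 1 lower at P0 than at E13.5. In the authors' table and with no filter on dim probes, 5 were higher at P0 than at E13.5. With only ligands well above background on every array compared, which leaves fewer genes, 12 were higher in the 2-week transplant than at E13.5, 12 in the 4-week transplant than at 8 weeks, 1 at 4 than at 2 weeks, and 9 above all kidneys. At a 2-fold threshold 4 ligands were lower at 4 than at 2 weeks, 7 higher and 4 lower at P0 than at E13.5, and 7 higher at 8 weeks than at P0. At a 4-fold margin 13 ligands were above all kidneys.

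Of 77 called differences of single ligands, 3 reversed with the normexp correction, all against E13.5, namely Ccl3 in the 2-week transplant (-0.58), Cxcl10 at P0 (-0.65) and Cxcl16 at P0 (-1.01), and 0 reversed under the other 4 alternatives run on them. Of the 77, 26 fell below 4-fold with the normexp correction, 15 with negative control spots, 3 with quantile normalization, 2 with the mean over probes and 1 in the authors' table. The cause of these changes was not tested. Calls of receptors, cytokines, proteases and markers were not recomputed under the alternatives, so their dependence on the processing is not known. Without the percentile shift, as in the authors' table, the median of all genes moved by -0.53 for the 8-week against the P0 kidney, by 0.36 for the 4-week transplant against the 8-week kidney and by -0.19 for the 4-week transplant against P0 and against the 2-week transplant. Against the 8-week kidney it gave 3361 genes higher and 1213 lower, where 2150 and 1428 were reported. Signal over background limits Cxcl2, Cxcl3, Cxcl5, Cxcl9, Cxcl15, Ccl1, Ccl7 and Xcl1, which were not well above it on 3 or 4 of the 5 arrays by the probes used, and Ccl20 and Ccl22, which passed on no array.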
